A study of Rattus norvegicus with 6 samples.

Results

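The miRNAs described here are those of the miR-379 to miR-410 cluster in the imprinted Dlk1-Dio3 region, measured in fibroblasts from rat sciatic nerve and in the extracellular vesicles (EV) those fibroblasts release. Members were chosen by name: every row of a known rat miRNA carrying 1 of 31 cluster numbers, with any letter or arm, and no rows that join several names. The rule found 60 of 1071 rows, from 30 of the 31 numbers (miR-889 had no row) and 34 precursor names. Of these rows, 26 were named as 5p arms, 31 as 3p arms and 3 carried no arm. The 3 EV libraries were compared with the 3 libraries from inside the cells (Intracellular), which are the controls of the design. All 6 came from wild-type, untreated nerve-derived fibroblasts of peripheral nerve and were put in 1 batch. Strain, age and whether replicates were separate cultures or animals are not given in the labels, so p-values cover only how much these samples vary, and that variation may be technical.

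The cluster is transcribed from the maternally inherited chromosome as part of a long non-coding RNA, and its hairpins are cut into a 5p and a 3p mature strand, of which usually one is loaded into Argonaute. The mature strand pairs with target mRNAs through its seed, bases 2 to 8, and lowers their translation or stability. The cluster is best known from brain, where its transcription follows neuronal activity and where miR-134, miR-329 and others act in dendrites, and it is also expressed in placenta. In RefSeq's rat assembly GRCr8 the hairpins from miR-379 to miR-410 lie on the plus strand at chr6:134543445-134579838, a stretch of 36394 bases. All 60 members matched RefSeq by name and with an identical mature sequence, and all 60 lay in that stretch. The 3 members on the minus strand were miR-299b-5p, miR-299b-3p and miR-409b.

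The mature sequences of the 12 members that differed between the groups are given first, since they carry the comparison. They are written 5′ to 3′ from RefSeq (GRCr8), with the seed in capitals. Those higher in EV were:
miR-667-3p: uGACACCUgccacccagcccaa
miR-134-3p: cUGUGGGCcaccuagucaccaa
miR-667-5p: cGGUGCUGguggagcagugagcac
miR-543-3p: aAACAUUCgcggugcacuucu
miR-154-5p: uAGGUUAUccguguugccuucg
miR-380-5p: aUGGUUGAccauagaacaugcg
miR-410-3p: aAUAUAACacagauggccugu
Those lower in EV were:
miR-411-5p: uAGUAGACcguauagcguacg
miR-329-5p: aGAGGUUUucugggucucuguuuc
miR-379-5p: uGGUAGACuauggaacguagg
miR-369-5p: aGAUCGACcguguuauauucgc
miR-409a-5p: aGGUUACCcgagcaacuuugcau
No seed was shared within these 12. The 60 members held 55 different seeds, and 5 seeds were shared by 2 members each. The shared ones include AUACAAG (miR-381-3p and miR-539-3p) and UGGAUAU (miR-376b-5p and miR-376c-5p). miR-379-5p and miR-411-5p, neighbours in the cluster and both lower in EV, have the seeds GGUAGAC and AGUAGAC.

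Totals were 81211 to 105578 counts in the EV libraries and 1839047 to 8859302 in the Intracellular ones, so that 1 count stood for 9.47 to 12.3 CPM (counts divided by the library total, times 1e+06) in EV. The TMM factor, by which edgeR corrects for composition, differed between the groups. It was 1.354, 1.257 and 1.172 in EV replicates 1, 2 and 3, above every Intracellular library. It was lowest by far in Intracellular replicate 1, at 0.557 against 0.963 and 0.935 in the other 2 Intracellular libraries. The 12 rows of fibroblast and mesenchymal markers (miR-143, miR-145, miR-199a, miR-214, miR-21, miR-152) summed to between 436600 and 461600 CPM in EV, against between 475000 and 496000 CPM inside cells. The 6 epithelial rows were at 0 in every EV library and summed to 1.09 to 2.42 CPM inside cells, less than 1 EV count stands for. The 10 neuronal rows summed to 2785 to 3173 CPM in EV, against 1941 to 3828 CPM inside cells, with 4 of them at 0 in EV. The liver miRNA miR-122-5p was at 11160 to 13720 CPM in EV, against 117.7 to 344.7 CPM inside cells. The 4 erythroid rows summed to 151.5 to 221.6 CPM in EV, with 2 of them at 0 there, against 2.26 to 6.53 CPM. The 7 leukocyte rows summed to 221.6 to 274.7 CPM in EV, against 64.2 to 170.8 CPM inside cells, with 2 at 0 in EV, and the 4 muscle rows to 98.5 to 217.8 and 42.4 to 76.1 CPM. The endothelial rows (259.9 to 435.7 and 141.4 to 390.3 CPM) and those of myelinating glia (21.7 to 123.1 and 22.3 to 49.9 CPM) overlapped between the groups. The part of RNA from other cells in the levels below was not tested. Fewer cells of a type and less RNA per cell, or fewer vesicles and less RNA per vesicle, cannot be told apart in such libraries.

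The cluster as a whole was a small part of both compartments. It took 2.07%, 1.89% and 1.87% of counts in EV replicates 1, 2 and 3, and 1.17%, 1.62% and 1.88% in Intracellular replicates 1, 2 and 3. The groups overlapped, since Intracellular replicate 3 lay between the EV libraries. The mean was 1.94% ± 0.107 in EV, against 1.56% ± 0.362 inside cells (SD, n = 3), a difference of 0.385 percentage points. That difference was 0.191 without Intracellular replicate 1, the library with the lowest share. Without its most abundant member, miR-379-5p, the cluster took 1.49%, 1.37% and 1.33% of EV counts and 0.677%, 0.967% and 1.04% of Intracellular counts. These shares did not overlap, but the mean CPM of the member left out was itself lower in EV. Many other miRNAs also took a larger part of the library total in EV. In 41.8% of all rows tested below, every EV library lay above every Intracellular one in CPM. Whether the cluster without miR-379-5p differs from that background was not tested. No p-value is given for sums over the members.

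Within the cluster the most abundant member took a smaller part in vesicles than in cells. miR-379-5p made up 27.8%, 27.9% and 29.1% of cluster counts in EV replicates 1, 2 and 3, and 42.1%, 40.4% and 44.5% in Intracellular replicates 1, 2 and 3. Every EV value was below every Intracellular value, and the means were 28.3% ± 0.748 and 42.4% ± 2.09 (SD, n = 3). Its neighbour miR-411-5p made up 2.15%, 2.60% and 3.30% in EV and 4.05%, 5.24% and 5.87% in Intracellular libraries, again with no overlap. A share within the cluster does not depend on how libraries are scaled to each other, but a smaller share of one member raises the shares of the others.

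**Figure D1:**
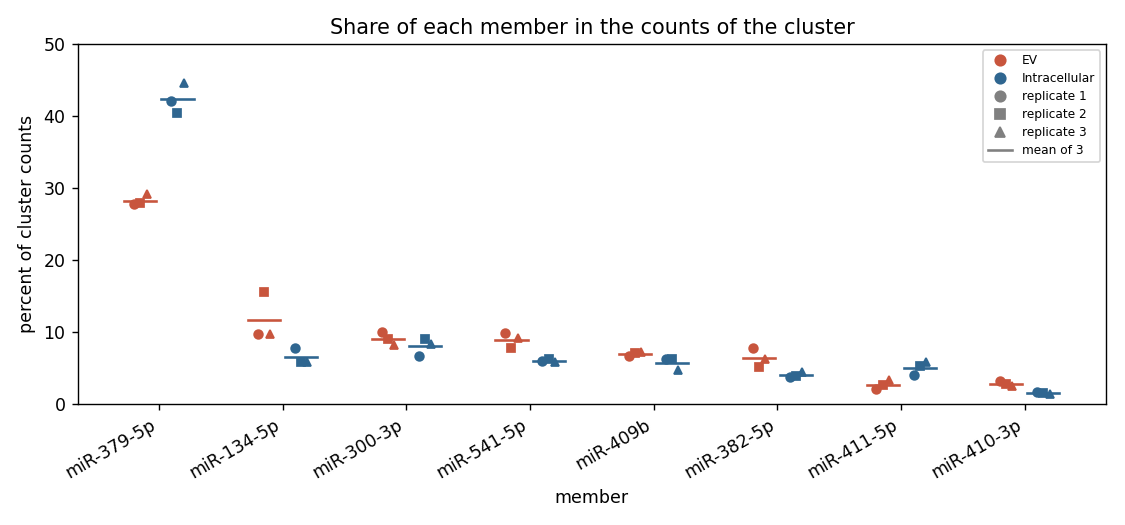
Percent of the counts of the cluster (vertical axis, linear) taken by 8 abundant members in each library. Points are libraries, with the marker shape giving the replicate, and lines are means of 3. miR-379-5p lies at 27.8% to 29.1% in EV and 40.4% to 44.5% in Intracellular libraries.

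Other abundant members took larger parts of the cluster in vesicles. miR-134-5p, known as a repressor of Limk1 in neuronal dendrites, made up 9.77%, 15.6% and 9.67% of cluster counts in EV and 7.79%, 5.90% and 5.77% in Intracellular libraries. miR-541-5p made up 9.89%, 7.75% and 9.15% against 5.91%, 6.27% and 5.80%. miR-382-5p made up 7.75%, 5.15% and 6.31% against 3.78%, 3.89% and 4.44%. The groups did not overlap for any of these 3. They overlapped for miR-300-3p, at 9.95%, 9.10% and 8.22% in EV and 6.73%, 9.10% and 8.35% in Intracellular libraries.

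On the CPM scale, which divides by the library total, the order of the most abundant members was led by miR-379-5p in both groups. It stood at 5738, 5285 and 5448 CPM in EV, against 4920, 6556 and 8389 CPM inside cells, and the 3 EV values lay between the lowest and the middle Intracellular value. miR-134-5p followed in EV at 2019, 2955 and 1809 CPM, against 910.3, 956.8 and 1087 CPM inside cells, with no overlap. miR-300-3p stood at 2056, 1724 and 1538 CPM against 786.3, 1476 and 1573 CPM, with overlap. The mean ± SD (n = 3) of miR-541-5p was 1741 ± 289.1 CPM in EV, against 933.5 ± 213.2 CPM inside cells, that of miR-409b 1360 ± 22.2 and 881.0 ± 141.7 CPM, and that of miR-382-5p 1252 ± 318.7 and 636.7 ± 197.5 CPM. For these 3 the groups did not overlap. miR-495 (695.1 ± 44.6 against 493.2 ± 53.6 CPM, no overlap) and miR-494-3p (589.4 ± 146.5 against 419.0 ± 77.2 CPM, overlap) came next. In EV, neighbours in this order from miR-134-5p to miR-382-5p differed by less than 1 SD of the larger spread, except miR-541-5p and miR-409b. CPM lay higher in EV without overlap in 41.8% of all tested rows. With TMM scaling the log2 fold change was -0.03 for miR-409b (edgeR adjusted p = 0.909) and -0.18 for miR-495 (edgeR adjusted p = 0.536).

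**Figure D2:**
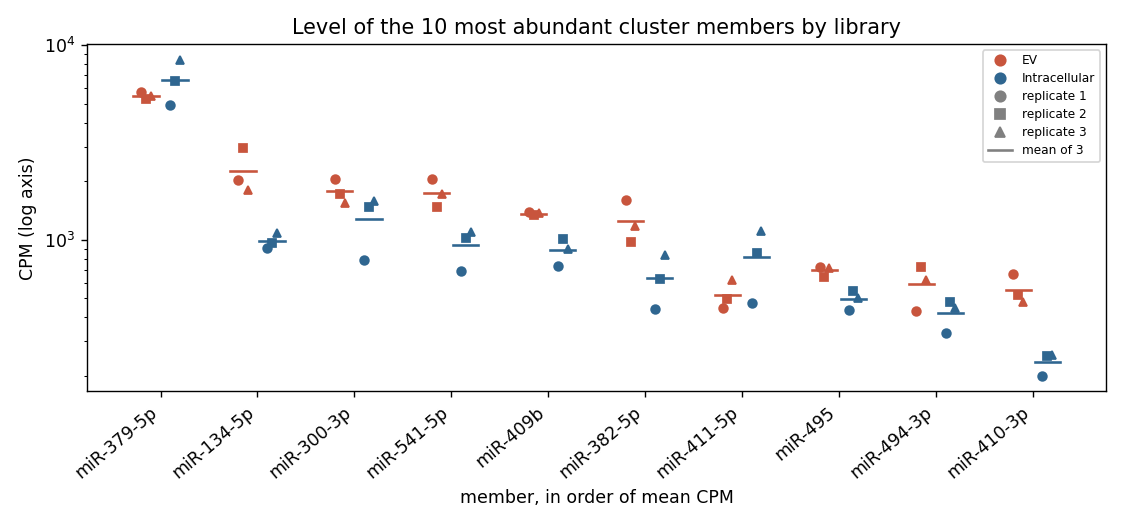
CPM of the 10 most abundant members (vertical log axis) in the 3 EV and 3 Intracellular libraries, with lines at the means of 3. miR-379-5p leads both groups, and its EV values of 5285 to 5738 CPM lie within the Intracellular range of 4920 to 8389 CPM.

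For all rows, counts were compared by edgeR's quasi-likelihood method, EV minus Intracellular, with TMM scaling, and a call is a Benjamini-Hochberg adjusted p under 0.05 over the 328 rows that passed the filter on low counts. Of the 60 members 42 passed, and the 18 that did not held at most 7 counts in EV. Of these 42, 12 (28.6%) were called, where 42.7% of all tested rows were. Among them 7 were higher and 5 lower in EV, or 16.7% and 11.9%, where 25.6% of all tested rows were called higher and 17.1% lower. The median log2 fold change was -0.13 over the members and -0.06 over all rows tested. All rows include predicted miRNAs, while members are known ones. Of the 248 tested known rows outside the cluster, joined names included, 21.4% were higher and 20.6% lower, with a median of -0.148. Higher calls were 58.3% of the members' calls with TMM, 83.3% with the cluster sum and 100% with library totals as scaling (60.0%, 84.7% and 96.4% over all rows). Of the 7 higher calls, 3 were of members that reached the minimum of the filter in EV alone. Among the 38 members that reached it in at least 1 Intracellular library, 4 (10.5%) were higher and 5 (13.2%) lower, where 15.5% and 19.7% of the 284 such rows were. This second count was chosen after the data were seen. CPM did not overlap and were higher in EV for 18 of the 42 members (42.9%, against 41.8% of all rows), and were lower in EV without overlap for 0 of 42 (3.66% of all rows).

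All 5 lower calls were 5p arms, out of 15 tested 5p arms, of which 3 more were higher. Of 24 tested 3p arms 4 were higher and 0 lower, with edgeR and TMM scaling. The difference in calls between arms was not tested, and the shares by arm over all tested rows were not counted. The lower calls also followed depth. All 5 were among the 23 tested members with at least 30 EV counts, and 0 of the 19 with fewer were lower. Whether a call depended on the scaling is given with each group below. Compared with TMM, total-count scaling raises the median log2 fold change of all rows by 0.61. Scaling to the summed counts of the cluster raises it by 0.31. Both therefore favour higher calls and work against lower ones.

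The lower calls with the smallest adjusted p were of 2 members at the start of the cluster. miR-411-5p was at 443.3, 492.5 and 617.4 CPM in EV, against 473.6, 850.6 and 1105 CPM inside cells. Only Intracellular replicate 1 fell into the EV range. The log2 fold change came to -1.23 (with SE 0.23, edgeR adjusted p = 0.000271), and without Intracellular replicate 1 it was -1.27 (adjusted p = 5.76e-06). miR-379-5p, from 1527 EV counts, changed by -0.91 on the log2 scale (SE 0.21, edgeR adjusted p = 0.00185), and by -0.80 (adjusted p = 8.84e-06) without that library. Both kept the call with the cluster sum as scaling, at -0.92 (adjusted p = 0.00197) and -0.58 (adjusted p = 0.0319). With library totals neither was called, at -0.65 (adjusted p = 0.177) and -0.27 (adjusted p = 0.445). The direction was the same under all 3 scalings, and the mean CPM of both was lower in EV, but with library totals the differences did not pass the threshold.

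The other lower calls were of less abundant 5p arms. miR-329-5p, from a hairpin whose 3p strand is known for dendrite growth in neurons, was at 135.4, 170.5 and 216.6 CPM in EV, against 163.7, 241.5 and 255.1 CPM inside cells (log2 fold change -0.96, edgeR adjusted p = 0.00733). miR-369-5p was at 184.7, 113.7 and 140.8 CPM against 92.4, 171.7 and 217.7 CPM (-0.75, adjusted p = 0.0367), and miR-409a-5p at 135.4, 151.5 and 151.6 CPM against 113.6, 162.1 and 185.2 CPM (-0.70, adjusted p = 0.0389). The groups overlapped for all 3: Intracellular replicate 1 lay within or below the EV values in each, and replicate 2 also lay within them for miR-369-5p. None of the 3 was called with the cluster sum (edgeR adjusted p of 0.095, 0.334 and 0.403) or with library totals. The calls of miR-369-5p and miR-409a-5p were each lost without any 1 of the EV libraries, among others, and that of miR-329-5p without EV replicate 1 (adjusted p = 0.0538).

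Among the higher calls, both arms of miR-667 and miR-134-3p had the largest changes and the fewest counts. miR-667-3p was at 49.3, 56.8 and 21.7 CPM in EV, against 2.72, 3.02 and 3.39 CPM inside cells, or 12 counts in all in EV against 45. It rose by 3.21 on the log2 scale (SE 0.61, edgeR adjusted p = 0.000373) and was called under all 13 alternatives, with adjusted p from 3.14e-06 to 0.0109. But miR-667-3p passed the filter only through its EV level, and the alternatives that keep the filter share this selection. miR-667-5p was at 24.6, 18.9 and 32.5 CPM in EV, against 0, 3.92 and 4.52 CPM inside cells, from 7 EV counts (2.36, SE 0.84, adjusted p = 0.0316). Its call was lost without any 1 EV library (adjusted p of 0.121, 0.0527 and 0.198 without replicates 1, 2 and 3).

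miR-134-3p, the rarely used strand opposite miR-134-5p, was at 12.3, 28.4 and 10.8 CPM in EV, against 0.544, 2.41 and 2.03 CPM inside cells. Its rise of 2.71 (SE 0.84, edgeR adjusted p = 0.0152) rests on 5 EV counts. Without EV replicate 1 or 2 it was no longer called, at 2.93 (adjusted p = 0.0657) and 2.08 (adjusted p = 0.205). Together with miR-377-3p, which was not called, miR-134-3p and both arms of miR-667 passed the filter only through EV, since no Intracellular library reached the 10.3 CPM that the filter asks for. Members that enter in this way had to differ, so their calls say nothing about the cluster as a set.

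The other 4 higher calls had more counts. miR-543-3p was at 61.6, 104.2 and 130.0 CPM in EV, against 28.8, 22.0 and 21.0 CPM inside cells (log2 fold change 1.41, SE 0.47, edgeR adjusted p = 0.0236). miR-380-5p, known to repress the mRNA of p53, had 10 counts in each EV library, or 123.1, 94.7 and 108.3 CPM, against 20.1, 30.8 and 43.9 CPM (1.14, SE 0.36, adjusted p = 0.0166). miR-410-3p, at the far end of the cluster, was at 664.9, 520.9 and 476.6 CPM against 200.1, 252.6 and 256.2 CPM (0.56, SE 0.22, adjusted p = 0.0499). In each of these 3 every EV library lay above every Intracellular one.

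miR-154-5p was also without overlap, but 1 library set its size. It was at 270.9, 75.8 and 54.2 CPM in EV, against 30.4, 32.0 and 40.1 CPM inside cells, and 22 of its 35 EV counts came from EV replicate 1. Its log2 fold change of 1.24 (edgeR adjusted p = 0.031) was 0.34 (adjusted p = 0.633) without that library, and the call was also lost without Intracellular replicate 2 or 3 and with DESeq2 (adjusted p of 0.0918, 0.076 and 0.0529). The call of miR-410-3p, just inside the threshold, was lost without each of the EV libraries (adjusted p of 0.173, 0.0859 and 0.0732) and without Intracellular replicate 2 or 3 (0.172 and 0.135). It was also lost with no filter (adjusted p = 0.232), with the filter at 10 CPM in 3 libraries (0.0501) and with DESeq2 (0.0565). The call of miR-543-3p was lost without EV replicate 2 or 3 and without Intracellular replicate 2 or 3, and that of miR-380-5p without EV replicate 1 or 3 and without Intracellular replicate 2, at adjusted p of at most 0.181 and 0.0711. All 7 higher calls kept their call with the cluster sum and with library totals. Both scalings raise the median log2 fold change of all rows, so this outcome was favoured beforehand.

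**Figure D3:**
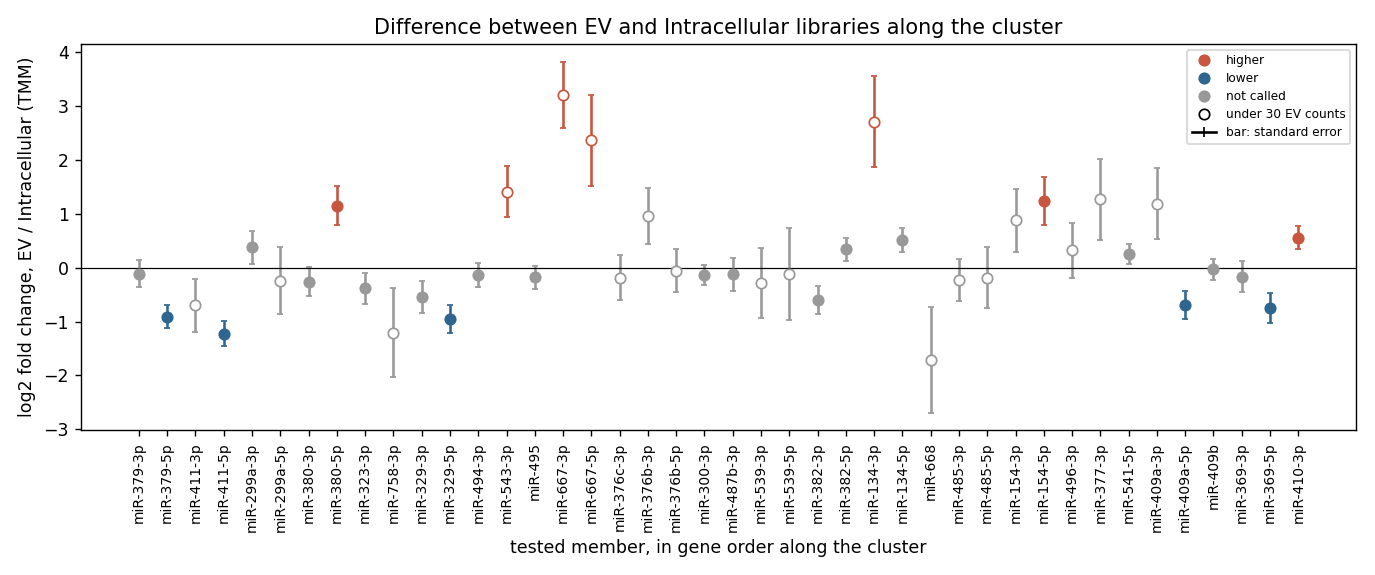
Log2 fold change, EV over Intracellular with TMM scaling, of the 42 tested members in gene order along the cluster, with bars for the standard error. Red points were called higher, blue points lower and grey points not called, and open points have under 30 EV counts. The lowest well-counted values are of miR-411-5p and miR-329-5p near the start, and the largest are of miR-667-3p and miR-134-3p with few counts.

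With the counts of the cluster as library size, the question is which members differ in their share of the cluster's counts. That sum includes miR-379-5p, whose smaller share in EV raises the shares of the others. A sum without it was not tested. With the cluster sum 10 members were higher and 2 lower, where 30.5% of all tested rows were called higher and 5.49% lower. The higher ones were the 7 above with miR-134-5p (log2 fold change 0.85, edgeR adjusted p = 0.0015), miR-541-5p (0.57, adjusted p = 0.0378) and miR-382-5p (0.66, adjusted p = 0.0197), and the lower ones miR-379-5p and miR-411-5p. With TMM none of these 3 abundant 5p strands was called, at 0.51 (edgeR adjusted p = 0.0738), 0.26 (0.283) and 0.34 (0.206) on the log2 scale. With library totals 11 members were higher and 0 lower, against 32.6% and 1.22% of all rows. Those were the same 10 higher members with miR-376b-3p (1.58, adjusted p = 0.048), from 14 EV counts. In all, 14 members had an unadjusted p under 0.05 with TMM.

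**Figure D4:**
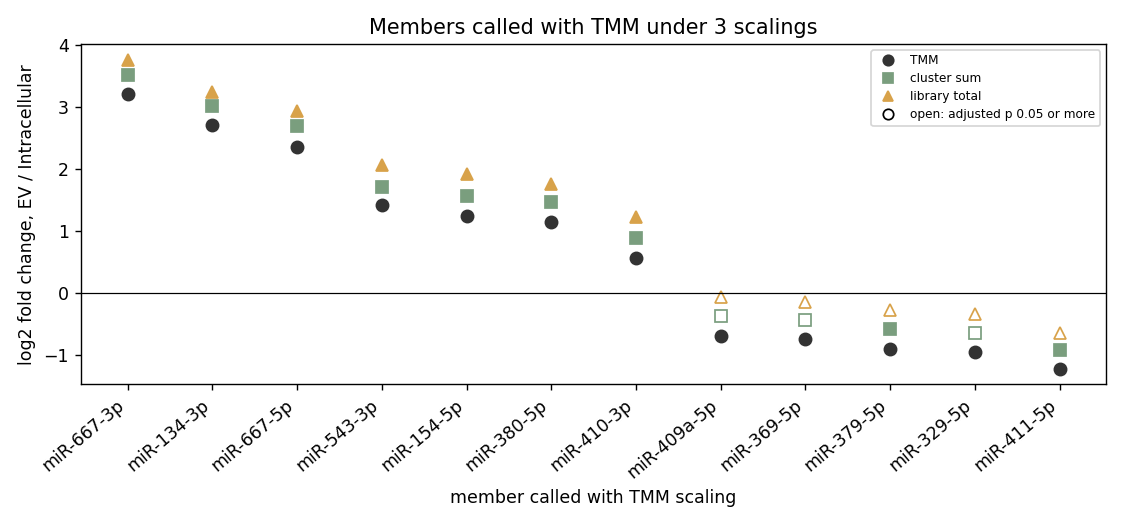
Log2 fold change, EV over Intracellular, of the 12 members called with TMM under 3 scalings (TMM, the summed counts of the cluster, the library total). Filled symbols have an edgeR adjusted p under 0.05. All 7 higher members stay filled, while of the 5 lower ones miR-379-5p and miR-411-5p stay filled with the cluster sum and none with the library total. Compared with TMM, both other scalings raise the median log2 fold change of all rows.

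The 2 arms of a hairpin come from 1 transcript, so a difference in their ratio does not depend on the scaling between libraries. Of 26 precursors with rows for both arms, 13 had more counts of the 5p arm in the pooled Intracellular libraries, and 23 had the same leading arm in pooled EV counts. The exceptions were miR-329 (49 and 66 EV counts of 5p and 3p, against 3361 and 2966), miR-667 (7 and 12, against 53 and 45) and miR-666, a tie with 1 count of each. In miR-329 and miR-667 the library values of the groups overlapped. By name, 5p rows took 62.8% ± 0.132 of cluster counts in EV, against 68.5% ± 2.45 inside cells (SD, n = 3), with every EV library below. Without miR-379-5p these shares were 48.1% ± 0.600 and 45.4% ± 2.34, and the groups overlapped.

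Arm usage was tested in one edgeR fit (diffSpliceDGE) over the 73 precursors with both arms tested. It was called for 5 of the 14 of the cluster, where 34.2% of all were called. In 2 of them the 5p arm was relatively higher in EV (13.7% of all) and in 3 the 3p arm (20.5%). Among these 3, miR-134 entered the test only through the EV level of its 3p arm. The 5p shares of the libraries did not overlap in 4 of the 14, where 38.4% of all 73 did not. The hairpins of the 5 are shown because the test compares their strands. They are written 5′ to 3′ from RefSeq (GRCr8, plus strand), with the 5p arm and then the 3p arm in capitals:
miR-380: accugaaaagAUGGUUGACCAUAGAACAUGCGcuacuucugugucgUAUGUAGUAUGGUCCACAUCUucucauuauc
miR-382: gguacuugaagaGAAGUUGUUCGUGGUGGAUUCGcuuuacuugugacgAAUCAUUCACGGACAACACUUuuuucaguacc
miR-379: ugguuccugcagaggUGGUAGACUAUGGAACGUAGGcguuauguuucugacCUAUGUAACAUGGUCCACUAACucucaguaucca
miR-409a: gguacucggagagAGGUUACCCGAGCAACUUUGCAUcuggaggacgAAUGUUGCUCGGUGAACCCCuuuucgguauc
miR-134: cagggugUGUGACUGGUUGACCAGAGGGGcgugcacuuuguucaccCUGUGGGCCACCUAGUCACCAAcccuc

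The 5p share of miR-380 was 34.5%, 28.6% and 50% in EV and 15.5%, 15.7% and 20.3% in Intracellular libraries. The groups did not overlap, and the 5p arm changed by 1.41 more than the 3p arm on the log2 scale (edgeR adjusted p = 0.0106). In miR-382 the 5p share was 89.0%, 85.1% and 84.5% in EV and 73.2%, 77.7% and 79.6% in Intracellular libraries (difference 0.94, adjusted p = 0.0288), also without overlap. Both hairpins thus gave relatively more 5p counts in vesicles, although 3p leads in miR-380 and 5p in miR-382.

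In the other 3 the 5p share was lower in EV. miR-379 gave 94.0%, 95.7% and 93.8% against 97.6%, 95.9% and 96.6% (difference -0.79, edgeR adjusted p = 0.0224), where the nearest libraries of the 2 groups were 95.7% and 95.9%. miR-134 gave 99.4%, 99.0% and 99.4% against 99.9%, 99.7% and 99.8% (-2.19, adjusted p = 0.0337), from 5 EV counts of the 3p arm. That arm passed the filter only through EV, so the direction of this difference was favoured by the filter. miR-409a gave 100%, 72.7% and 77.8% against 94.1%, 92.7% and 94.4% (-1.89, adjusted p = 0.017), from 10 EV counts of the 3p arm and with overlap, since EV replicate 1 held 0 of them. Each of the 5 calls was lost without at least 1 library, and with any library left out the number of cluster precursors called was 1 to 3. The direction of each difference was the same in all 9 alternatives run for it.

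**Figure D5:**
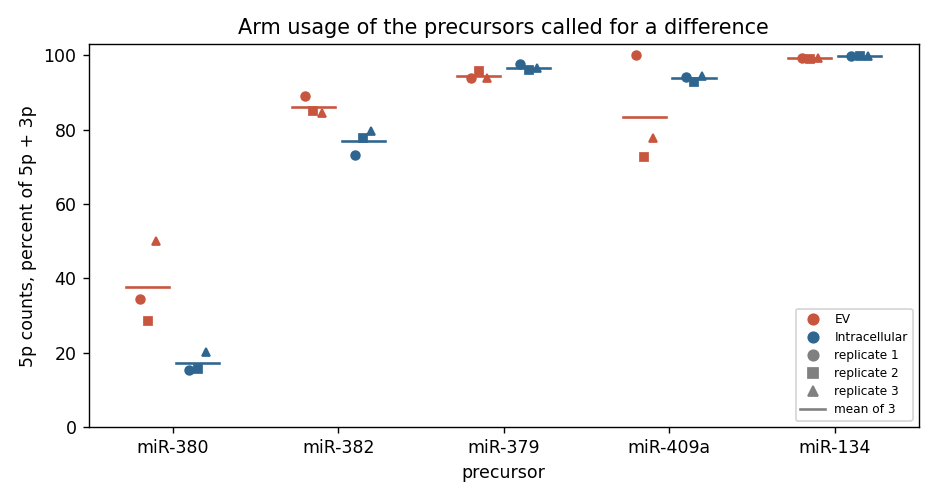
Counts of the 5p arm as a percent of 5p and 3p counts (vertical axis) for the 5 precursors called for arm usage, by library, with lines at the means of 3. miR-380 and miR-382 lie higher in EV and miR-379 and miR-134 lower, while the EV values of miR-409a fall on both sides of the Intracellular ones.

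Some members share sequence, which limits what their counts can say. miR-300-3p and miR-381-3p, 2 neighbouring genes, match over the 18 bases of miR-381-3p except for G4A, counted from the 5′ end with the base of miR-300-3p first:
miR-300-3p: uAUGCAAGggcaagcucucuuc
miR-381-3p: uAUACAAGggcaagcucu
miR-300-3p held 491 counts in EV, and miR-381-3p held 4. Its mature sequence in RefSeq ends after 18 bases, and how reads between the 2 were divided is not stated. miR-299a-3p and miR-299b-3p match over 17 bases, and single substitutions separate miR-299a-5p from miR-299b-5p (U1C) and miR-376b-5p from miR-376c-5p (G19U).

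On opposite strands, miR-409b covers the 20 bases of miR-409a-3p:
miR-409b: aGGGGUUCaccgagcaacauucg
miR-409a-3p: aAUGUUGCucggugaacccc
miR-409b, listed with 1360 ± 22.2 CPM in EV, against 881.0 ± 141.7 CPM inside cells (SD, n = 3), was the fifth most abundant member, while miR-409a-3p stood at 0, 56.8 and 43.3 CPM in EV, against 7.07, 12.7 and 10.9 CPM inside cells. Whether counting used strand is not stated, so reads of these 2 cannot be told apart here, and the arm usage of miR-409a carries the same limit. In RefSeq, 8 members on the plus strand had such a partner, among them miR-380-5p, whose partner miR-3579 held 0 EV counts and 2 Intracellular counts, and miR-369-5p, miR-382-3p and miR-539-5p, whose partners had no row.

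Other features of the sequence were described with no test. The GC content of the mature strand had a median of 50% in the 7 higher members, 47.6% in the 5 lower ones and 43.2% in the 30 not called. Of the 7, miR-667-3p (63.6%), miR-667-5p (66.7%) and miR-134-3p (59.1%) passed the filter only through EV. The other higher members were at 47.6% (miR-543-3p), 50% (miR-154-5p), 45.45% (miR-380-5p) and 38.1% (miR-410-3p). Across the 42 tested members, which share libraries and depth, GC content and log2 fold change had a Spearman's rho of 0.13 and a Pearson's r of 0.27, and rho was 0.33 across the 247 other tested known miRNAs. The 4-letter strings described for sorting of miRNAs into vesicles were searched on the mature strand alone. GGAG was in 2 of 60 members (7.99% of 551 known miRNAs), CCCU in 2 (9.44%), GGCU in 5 (11.1%) and UGUG in 8 (15.1%). Among the 12 called members GGAG was found in miR-667-5p and UGUG in miR-134-3p, both of which passed the filter only through EV. Tested without a call were miR-539-5p with GGAG, and miR-134-5p, miR-299a-3p, miR-758-3p and miR-539-5p with UGUG.

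Position in the cluster was described in the same way. Spearman's rho of gene order with log2 fold change was 0.27 across the 42 tested members and 0.25 across the 23 with at least 30 EV counts. The Intracellular level went the other way: rho of log10 CPM with log2 fold change was -0.36 (Pearson's r -0.54, n = 42). That relation shares its Intracellular values on both axes, and members with few Intracellular counts enter only through EV. Across the 42 members Pearson's r of log2 CPM between libraries was 0.852 to 0.908 among EV libraries, 0.978 to 0.997 among Intracellular ones and 0.855 to 0.903 across groups. EV libraries thus correlated with each other in this cluster about as much as with Intracellular ones. But the tested members held a median of 32.5 counts over the pooled EV libraries. Counting error therefore limits every correlation that includes an EV library.

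Upstream in the same imprinted region lie miRNAs of the antisense transcript of Rtl1 and of Meg3, which the rule did not take. Of 16 tested rows of that list (23 rows in all) 2 were higher and 3 lower in EV with edgeR and TMM scaling, with a median log2 fold change of -0.16, close to the -0.13 of the cluster. miR-665 (2.10, adjusted p = 0.0145) and miR-136-5p (1.10, adjusted p = 0.00817) were higher, and miR-127-3p (-1.67, adjusted p = 0.000159), miR-493-5p (-0.79, adjusted p = 0.0102) and miR-136-3p (-0.74, adjusted p = 0.00958) lower. Of the cluster's own members 16.7% were higher and 11.9% lower. These lists were not tested against each other.

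Depth limited what could be seen of the rarest members. EV libraries held counts for 47, 47 and 46 of the 60 members and Intracellular libraries for 51, 55 and 60. The 8 members with 0 counts in EV were miR-412-3p, miR-544-3p, miR-299b-3p and the 5p arms of miR-494, miR-487b, miR-376c, miR-323 and miR-300. A count of 0 over the pooled EV libraries allows up to 10.7 CPM (3 counts, counting error only), and their Intracellular means were at most 2.11 CPM, so that at the same level at most 0.59 counts of each were to be seen in EV. Absence from vesicles was therefore not detectable at this depth for any of the 8.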

How the data were processed

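Small RNA was sequenced from 3 EV and 3 Intracellular samples. The authors deposited whole-number counts per mature miRNA, unnormalized. Per the submitters' processing notes, cutadapt and the build Rnor_6.0 were used. The aligner, miRNA database, counting program and handling of shared reads remain not given in the sources used here. Per the labels' protocols, adapters were ligated and the cDNA was amplified by PCR, with no molecular identifiers named, so floors cover counting error only.

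Counts were tested with edgeR 4.0.16 (R 4.3.3): filterByExpr (minimum count 10, minimum total 15), TMM, glmQLFit with robust dispersions and glmQLFTest, 2-sided, without a replicate block. Arm usage used diffSpliceDGE on that fit. Alternatives were RLE, library-total and cluster-sum scaling, 2 other filters, DESeq2 1.42.0, a replicate block and each library left out with the tested rows kept. The procedure was also run on simulated counts, drawn for both groups from a profile pooled over all libraries, with randomly chosen rows changed. That setting did not copy the difference in composition between EV and Intracellular libraries, so it does not bear on calls that depend on scaling.

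Members, lists and rules were chosen with earlier results of these data known. Named members were every member called, the 10 most abundant, both arms of precursors called for arm usage or among the 5 most abundant, and members absent from EV with at least 3 counts expected there (none). Others were chosen after their values were seen. Replicate numbers were not taken as pairs. Sequences, coordinates and gene order are from RefSeq (GRCr8).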

Additional observations from a re-analysis of the deposited data

Results flagged for a closer look

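Among the members that did not pass the filter on low counts, 2 had counts in every EV library and a CPM above every Intracellular library. They were picked for this pattern. A single EV count stands for 9.47 to 12.3 CPM, more than any Intracellular value of either, so 1 count in each EV library is enough for it. The share of all untested rows with this pattern was not counted. miR-299b-5p held 7 EV counts (12.3, 9.47 and 54.2 CPM in replicates 1, 2 and 3) against 5 Intracellular counts (0.544, 0 and 0.452 CPM). It lies opposite miR-299a-3p, with 19 bases of overlap, which held 36 EV and 986 Intracellular counts. miR-381-3p held 4 EV counts (12.3, 9.47 and 21.7 CPM) against 9 Intracellular counts (0, 1.51 and 0.452 CPM). Neither difference was tested, and each EV library held 1 to 5 counts of either.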

How the results depend on the processing

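With library totals 11 members were higher and 0 lower, and over all rows 4 were lower; with the cluster sum 2 members and 18 of all rows were lower. DESeq2 called 3 members lower. Without the rows that passed the filter only through EV, a count added after the data were seen, 4 members and 44 of all rows were higher. The median log2 fold change of the members was 0.488 with library totals, 0.181 with the cluster sum and -0.272 with no filter, and -0.159 to -0.0198 with a library left out. With no filter 197 rows were higher and 2 precursors of the cluster were called for arm usage. With a library left out, 3 to 8 members were higher and 2 to 4 lower, over all rows 62 to 91 were higher and 18 to 58 lower, and 1 to 3 cluster precursors were called for arm usage. The members called without EV replicate 1 were 5, of which 4 were among the 12.

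Reversed to above 0 with library totals and the cluster sum were miR-300-3p (0.47 and 0.173), miR-379-3p (0.464 and 0.187), miR-380-3p (0.372 and 0.0536), miR-409b (0.626 and 0.284), miR-494-3p (0.497 and 0.178) and miR-495 (0.494 and 0.143), and with library totals alone miR-382-3p (0.0634). With a library left out, the log2 fold change ran from -0.261 to 0.0728 for miR-379-3p, from -0.0862 to 0.161 for miR-409b, from -0.305 to 0.0778 for miR-494-3p and from -0.252 to 0.063 for miR-495. None of these values was called. Over all tested rows the median log2 fold change was also raised, by 0.61 with library totals and by 0.305 with the cluster sum. The cause was not tested.

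Correlations of deviations between samples with the same replicate number were 0.0336, 0.0886 and -0.0232. With so few EV counts these values cannot settle whether the samples were paired. With the replicate block 8 members were higher and 4 lower, and 3 precursors were called for arm usage.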
